A study of Mus musculus with 12 samples.

Results

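The 10 genes Hspa5, Hsp90b1, Calr, Dnajb11, Pdia4, Pdia6, Sdf2l1, Herpud1, Creld2 and Xbp1 encode chaperones of the endoplasmic reticulum (ER) and parts of the unfolded protein response. They were taken by symbol from the 30994 genes counted, and all 10 were found. RNA was measured in SIM-A9 cells, a line of mouse microglia from strain C57BL/6, by SLAM-seq. In this assay 4-thiouridine is built into RNA during a pulse and read out as base changes, so that each library gives a count of nascent reads and a count of total reads per gene. Every culture, controls included, had 10 µM polymyxin B, an antibiotic that binds endotoxin, for 1 h. After that came 1 h with 10 µM C13, named in the study's title as an inhibitor of the protein kinase MOK, or with the solvent DMSO. TDP-43, a protein that binds RNA, followed as aggregates at 5 µg/mL for 4 h, or a sham preparation in its place, and the last 90 min held 100 µM 4-thiouridine. The 4 groups are called C13 with TDP-43, C13 with sham, DMSO with TDP-43 and DMSO with sham, with 3 libraries each that the labels call biological replicates. All came from 1 cell line, and nothing in the labels says how separate the cultures were, so p-values measure the spread between these libraries only. In bulk RNA, fewer cells that express a gene and less RNA per cell cannot be told apart.

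The unfolded protein response is set off when unfolded proteins build up in the ER. The chaperone BiP, product of Hspa5, then leaves the membrane sensors IRE1, PERK and ATF6. IRE1 splices Xbp1 RNA, ATF6 is cleaved to an active factor, and PERK slows translation. XBP1 and ATF6 switch on genes of ER chaperones, folding enzymes and ER-associated degradation, the route by which misfolded proteins are sent to the proteasome. In macrophages and microglia the same pathway also keeps pace with secretion of cytokines.

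The promoters are shown because the members are known as targets of shared DNA elements. The ER stress response element, ERSE, is CCAAT, 9 bases of any kind, then CCACG, and is bound by the factor NF-Y together with ATF6 or XBP1. ERSE-II is ATTGG, 1 base of any kind, then CCACG. Both were searched on both strands of the window of 250 bases before to 50 bases after the RefSeq transcript start (GRCm38.p6), and all 10 members had a window. An exact ERSE was present in 5 of 10 members and in 39 of all 32544 promoters (0.12%). ERSE-II was present in 2 of 10 members and in 12 promoters (0.0369%). Each match is given 5′ to 3′ on the strand where it reads in that order, with the fixed bases of the motif in capitals.
Hspa5: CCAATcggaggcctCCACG
Hsp90b1, upstream copy: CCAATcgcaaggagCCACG
Hsp90b1, downstream copy: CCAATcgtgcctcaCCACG
Calr: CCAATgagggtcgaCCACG
Pdia6: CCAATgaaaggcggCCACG
Creld2: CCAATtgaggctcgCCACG
Dnajb11: ATTGGcCCACG
Herpud1: ATTGGgCCACG
Counted from the transcript start, the Hspa5 match began at -65, that of Pdia6 at -98 and the upstream copy of Hsp90b1 at -212, all on the gene's strand. The downstream copy of Hsp90b1 at -107 and the matches of Calr at -162 and Creld2 at -126 stood on the opposite strand. The ERSE-II of Herpud1 began at -52, and that of Dnajb11 at 8, inside the transcript. Pdia4, Sdf2l1 and Xbp1 held no exact match to these letters in this window, from which nothing follows about the factors.

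Whole windows are printed for Hspa5, the most counted member, for Hsp90b1, which has a pair of ERSE copies, and for Dnajb11, the member with the smallest p-values. Capitals mark the fixed bases of ERSE or ERSE-II as they stand on the gene's strand and, in Hspa5, the UPRE core. The windows are chr2:34771840-34772139 on the plus strand for Hspa5, chr10:86705395-86705694 on the minus strand for Hsp90b1 and chr16:22857595-22857894 on the plus strand for Dnajb11, all GRCm38.
Hspa5: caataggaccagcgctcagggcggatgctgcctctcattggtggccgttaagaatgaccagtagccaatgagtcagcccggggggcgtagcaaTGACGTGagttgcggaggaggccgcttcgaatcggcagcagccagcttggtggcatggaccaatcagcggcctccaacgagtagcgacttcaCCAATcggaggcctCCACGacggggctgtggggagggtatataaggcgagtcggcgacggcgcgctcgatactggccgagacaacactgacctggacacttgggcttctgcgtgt
Hsp90b1: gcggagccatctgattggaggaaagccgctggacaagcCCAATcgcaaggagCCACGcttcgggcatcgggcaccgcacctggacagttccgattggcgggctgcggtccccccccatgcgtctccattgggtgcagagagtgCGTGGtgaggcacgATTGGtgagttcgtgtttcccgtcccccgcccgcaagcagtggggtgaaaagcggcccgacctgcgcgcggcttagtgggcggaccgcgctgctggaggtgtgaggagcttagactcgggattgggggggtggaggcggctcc
Dnajb11: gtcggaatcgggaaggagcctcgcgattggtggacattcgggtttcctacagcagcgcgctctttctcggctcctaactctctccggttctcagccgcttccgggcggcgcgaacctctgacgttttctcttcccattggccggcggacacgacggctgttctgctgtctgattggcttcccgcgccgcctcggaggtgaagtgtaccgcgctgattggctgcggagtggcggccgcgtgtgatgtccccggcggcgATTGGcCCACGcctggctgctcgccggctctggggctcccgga
The UPRE core, TGACGTG, a site that XBP1 and ATF6 can bind, stood in 1 member, Hspa5, and in 659 of 32544 promoters (2.02%). The CCAAT box alone, CCAAT on either strand, stood in 9 of 10 members and in 37.4% of promoters. CCACG alone stood in 9 of 10 members and in 33% of promoters. ERSE and ERSE-II contain both of these shorter motifs, so the counts overlap. Xbp1 was the member with none of them.

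**Figure D1:**
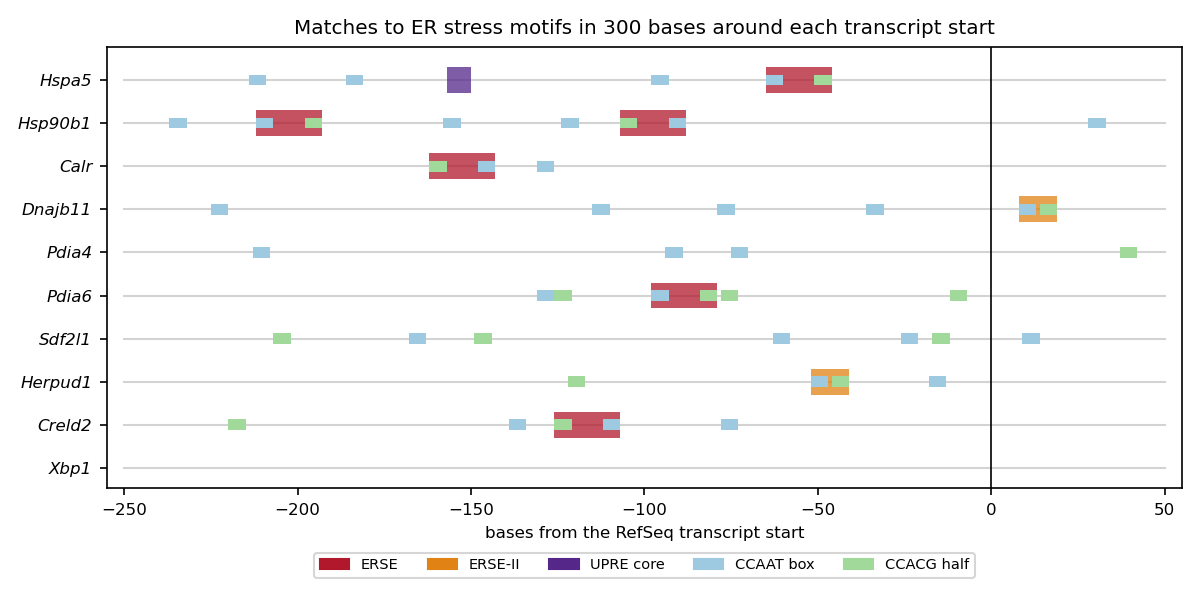
Exact motif matches in the promoter window of each of the 10 genes, by distance in bases from the RefSeq transcript start (x axis), with 1 line per gene and the motif by colour. ERSE stands in 5 genes, ERSE-II in Dnajb11 and Herpud1, and the short CCAAT and CCACG motifs in 9 genes each.

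The libraries held 17436397 to 41779882 total reads and 552042 to 2722812 nascent reads. The members took 0.248% to 0.335% of total reads and 0.333% to 0.564% of nascent reads. All 10 passed the filter on low counts in total RNA, where 11827 genes were tested. In nascent RNA 8 of 10 passed, among 7078 genes, since Pdia4 and Creld2 were too low. Levels are CPM, that is counts of a kind scaled to a common library size of that kind by TMM. Since 3′ ends were sequenced, they are read tags per transcript end with no length correction. Of 15 markers of microglia and macrophages, 13 averaged over 1 CPM in total RNA, summing to 984.9 to 1506 CPM per library, while the microglial marker Tmem119 averaged 0.51 CPM. No astrocyte, neuron or fibroblast marker of 5 each averaged over 1 CPM, with Gfap, Aldh1l1, Gja1, Snap25, Stmn2, Col1a2, Col3a1 and Dcn at 0 in every library. Of 5 oligodendrocyte markers Mbp did, and Mog and Mag were at 0. The first principal component of total RNA (16.2% of the variance) set DMSO with TDP-43 replicate 3 and C13 with sham replicate 3 apart from the other 10 libraries. Mok RNA averaged 3.21 CPM in total RNA, and the drug acts on the protein, so Mok counts do not check the treatment.

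No member passed edgeR's quasi-likelihood test at an adjusted p of 0.05 in total or nascent RNA in any comparison, and DESeq2 also called 0. The smallest p-values were those of Dnajb11 and Sdf2l1 in total RNA. Dnajb11 averaged 36.7 CPM in C13 with sham against 67.9 CPM in DMSO with sham, and Sdf2l1 18.9 CPM against 33.2 CPM. In total RNA Pdia6 averaged lower in both C13 groups than in their DMSO groups, at an average log2 difference of -0.34. In nascent RNA its difference was 0.08 averaged, at -0.39 with aggregates and 0.56 with sham. Hspa5 stayed within -0.02 and 0.20 in the 4 pairwise log2 differences of total RNA.

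Among the chaperones that hold unfolded chains, Hspa5 encodes BiP, the HSP70 of the ER. In total RNA Hspa5 had 2805, 2365 and 1751 CPM in C13 with TDP-43, 2132, 2414 and 1758 CPM in C13 with sham, 2429, 1566 and 2035 CPM in DMSO with TDP-43 and 2192, 1936 and 1987 CPM in DMSO with sham. C13 with TDP-43 held both the highest library and 1 of the 3 lowest, and the 4 groups overlapped. In nascent RNA Hspa5 had 4507, 3645 and 3478 CPM in C13 with TDP-43, 3929, 3390.3 and 4698 CPM in C13 with sham, 3714, 2743 and 5338 CPM in DMSO with TDP-43 and 3579, 2303 and 3529 CPM in DMSO with sham. DMSO with sham replicate 2 was the lowest and DMSO with TDP-43 replicate 3 the highest of the 12. Averaged over aggregates and sham, C13 minus DMSO was 0.12 in log2 total RNA, with a 95% interval of -0.20 to 0.44. Averaged over drug and solvent, aggregates minus sham was 0.06, with an interval of -0.26 to 0.38. Differences of Hspa5 anywhere inside these intervals were compatible with the values of these libraries.

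Hsp90b1 encodes GRP94, the HSP90 of the ER, which folds Toll-like receptors and integrins. In total RNA Hsp90b1 had 101, 149 and 162 CPM in C13 with TDP-43, 128, 54.1 and 119 CPM in C13 with sham, 146, 121 and 178 CPM in DMSO with TDP-43 and 129, 117 and 140.2 CPM in DMSO with sham. C13 with sham replicate 2 was far below the other libraries, and the groups overlapped. In nascent RNA Hsp90b1 had 47.6, 70.4 and 123 CPM in C13 with TDP-43, 225, 7.08 and 19.8 CPM in C13 with sham, 166, 113 and 208 CPM in DMSO with TDP-43 and 70.9, 108 and 98.5 CPM in DMSO with sham. Nascent Hsp90b1 did not overlap between DMSO with TDP-43 and DMSO with sham, being higher with TDP-43, while C13 with sham spread from the lowest to the highest of all 12 libraries. Calr encodes calreticulin, a lectin that binds calcium and folds glycoproteins. Its total RNA was at 149, 147 and 172 CPM in C13 with TDP-43, 186, 146 and 197 CPM in C13 with sham, 178, 188 and 214 CPM in DMSO with TDP-43 and 157, 164 and 176 CPM in DMSO with sham. C13 with TDP-43 held 2 of the 3 lowest libraries and did not overlap with DMSO with TDP-43. In nascent RNA Calr had 86.7, 129 and 121 CPM in C13 with TDP-43, 118, 225 and 73.4 CPM in C13 with sham, 146, 203 and 210.1 CPM in DMSO with TDP-43 and 118, 181 and 129.8 CPM in DMSO with sham. The same 2 groups did not overlap there either, and C13 with sham held both the highest and the lowest value.

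**Figure D2:**
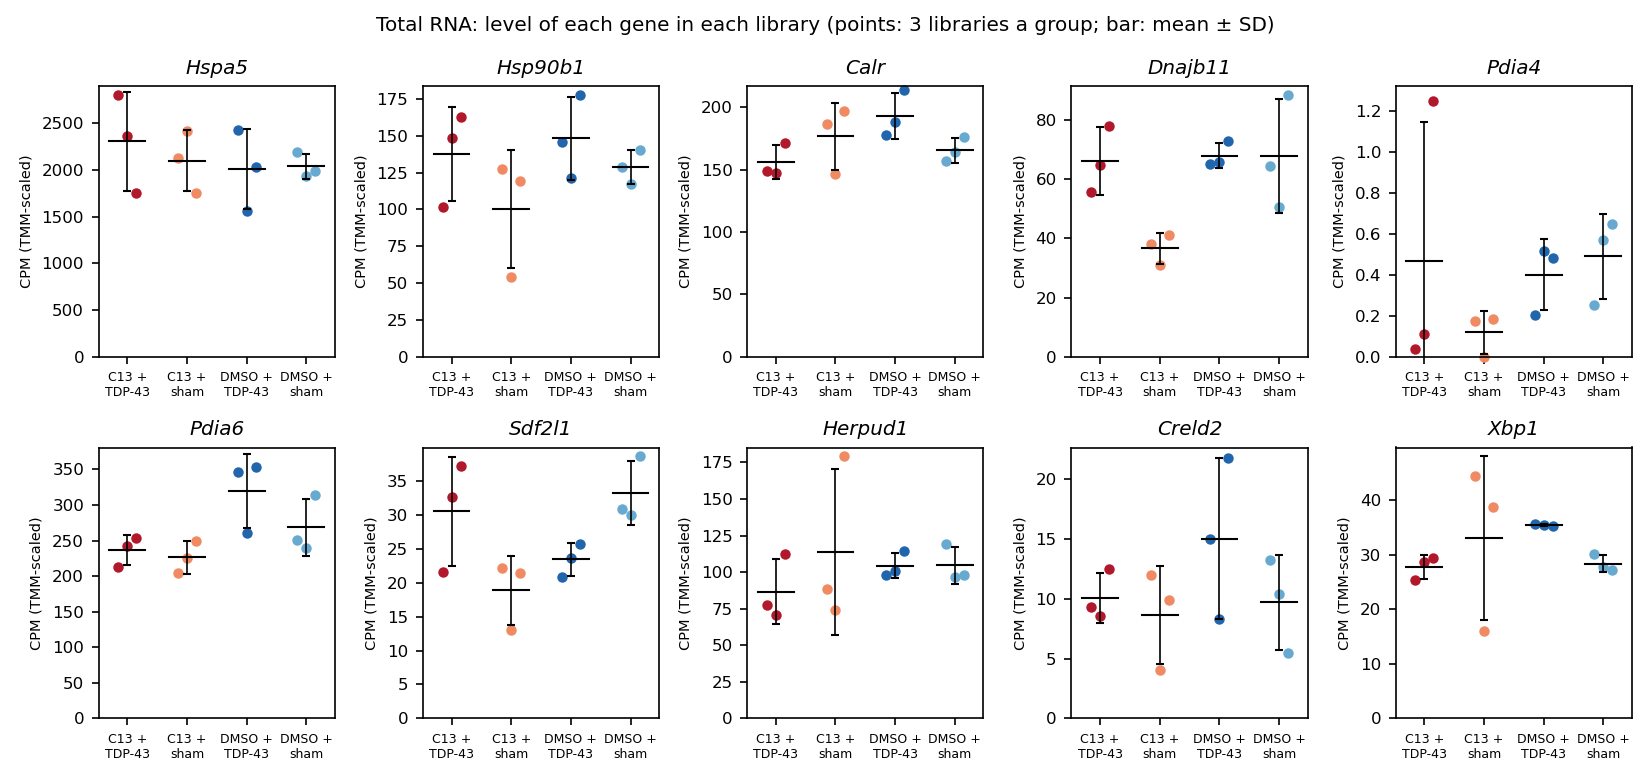
Total RNA level of each gene in CPM (y axis, linear from 0) in each of the 12 libraries, by group (x axis), with the mean and SD of the 3 libraries of a group as bars. Dnajb11 in C13 with sham lies at 31.0 to 41.0 CPM, under all libraries of the other 3 groups, a pattern whose share of all genes was not counted.

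Dnajb11 encodes ERdj3, a J-domain partner of BiP, and Sdf2l1 a protein that works in complex with it. In total RNA Dnajb11 had 55.5, 64.8 and 78.1 CPM in C13 with TDP-43, 38.0, 31.0 and 41.0 CPM in C13 with sham, 65.2, 65.8 and 72.9 CPM in DMSO with TDP-43 and 64.3, 50.7 and 88.6 CPM in DMSO with sham. All 3 libraries of C13 with sham were below all 9 others, and the share of all genes with this pattern was not counted. Lower without overlap in C13 with sham than in DMSO with sham alone were 5.72% of all genes. For Sdf2l1, total RNA stood at 21.7, 32.7 and 37.3 CPM in C13 with TDP-43, 22.2, 13 and 21.5 CPM in C13 with sham, 20.9, 23.7 and 25.7 CPM in DMSO with TDP-43 and 31.0, 30.1 and 38.7 CPM in DMSO with sham. Sdf2l1 was lowest in C13 with sham replicate 2, and DMSO with sham lay above both DMSO with TDP-43 and C13 with sham, while C13 with TDP-43 overlapped with all. Creld2 encodes a secreted, ER-stress-induced protein with disulfide isomerase activity. In total RNA Creld2 had 9.28, 8.53 and 12.5 CPM in C13 with TDP-43, 12.01, 4.08 and 9.90 CPM in C13 with sham, 15.01, 8.31 and 21.8 CPM in DMSO with TDP-43 and 13.3, 10.4 and 5.44 CPM in DMSO with sham. Its groups overlapped throughout, and its nascent counts were between 0 and 29 reads per library.

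In nascent RNA Dnajb11 had 7.33, 7.29 and 25.4 CPM in C13 with TDP-43, 5.07, 1.77 and 1.98 CPM in C13 with sham, 73.6, 11.1 and 30.8 CPM in DMSO with TDP-43 and 2.47, 57.1 and 89.3 CPM in DMSO with sham. These rest on 1 to 169 reads, and DMSO with sham held both a library with 3 reads and the highest one, so that group overlapped with all others. For Sdf2l1, nascent RNA stood at 23.2, 52.6 and 9.67 CPM in C13 with TDP-43, 25.4, 19.5 and 15.9 CPM in C13 with sham, 61.9, 58.9 and 44.3 CPM in DMSO with TDP-43 and 21.4, 14.9 and 46.0 CPM in DMSO with sham. DMSO with TDP-43 lay high, overlapping with C13 with TDP-43 and DMSO with sham but not with C13 with sham. An antisense gene, Gm30505, overlaps Dnajb11 in the annotation, and the sources used here do not say whether counting used the strand, so its reads cannot be separated. Hsp90b1 overlaps Gm15344 and Gm25745 on its own strand and 1810014B01Rik on the other. Pdia4 overlaps the microRNA gene Mir704 on its own strand.

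The disulfide isomerases form and shuffle disulfide bonds. Pdia6 encodes P5, a partner of BiP. In total RNA Pdia6 had 213, 242 and 254 CPM in C13 with TDP-43, 204, 225 and 249.7 CPM in C13 with sham, 347, 259.9 and 354 CPM in DMSO with TDP-43 and 250.3, 240.1 and 315 CPM in DMSO with sham. Every library of C13 with TDP-43 was below every library of DMSO with TDP-43, and the sham groups overlapped. In nascent RNA Pdia6 had 283, 230.0 and 205 CPM in C13 with TDP-43, 270.5, 471 and 555 CPM in C13 with sham, 358, 149 and 439 CPM in DMSO with TDP-43 and 185, 275 and 422 CPM in DMSO with sham. The 4 nascent groups overlapped, and C13 with sham held the 2 highest libraries. Pdia6 overlaps Atp6v1c2 on the other strand. Pdia4, which encodes ERp72, was near the floor, with 0 to 43 total reads and 0 to 7 nascent reads per library. Its highest total level was 1.25 CPM, in C13 with TDP-43 replicate 3, and 1 library of C13 with sham had 0 reads.

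Herpud1 encodes a membrane protein that organises ER-associated degradation around the ligase HRD1. In total RNA Herpud1 had 77.5, 70.3 and 112 CPM in C13 with TDP-43, 88.7, 74.0 and 179 CPM in C13 with sham, 98.0, 101 and 114 CPM in DMSO with TDP-43 and 119, 96.9 and 97.9 CPM in DMSO with sham. C13 with sham replicate 3, which stands apart as a library, was the highest, and the groups overlapped. In nascent RNA Herpud1 had 73.3, 126 and 140.2 CPM in C13 with TDP-43, 6.76, 177 and 623 CPM in C13 with sham, 596, 177 and 339 CPM in DMSO with TDP-43 and 327, 75.1 and 333 CPM in DMSO with sham. Nascent Herpud1 varied most within C13 with sham, and all 3 libraries of C13 with TDP-43 were below all 3 of DMSO with TDP-43. Herpud1 overlaps the antisense gene Gm15890. Xbp1, the factor downstream of IRE1, had total RNA as follows: 25.3, 28.7 and 29.4 CPM in C13 with TDP-43, 44.5, 16.1 and 38.8 CPM in C13 with sham, 35.7, 35.6 and 35.3 CPM in DMSO with TDP-43 and 30.1, 27.9 and 27.2 CPM in DMSO with sham. DMSO with TDP-43 was tight and above both C13 with TDP-43 and DMSO with sham, while C13 with sham covered the range of all groups. In nascent RNA Xbp1 had 12.2, 74.5 and 96.7 CPM in C13 with TDP-43, 59.2, 38.9 and 171 CPM in C13 with sham, 90.3, 54.3 and 139 CPM in DMSO with TDP-43 and 56.1, 46.0 and 17.5 CPM in DMSO with sham. The nascent groups overlapped. Counts per gene do not tell spliced from unspliced Xbp1, so the activity of IRE1 was not measured.

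**Figure D3:**
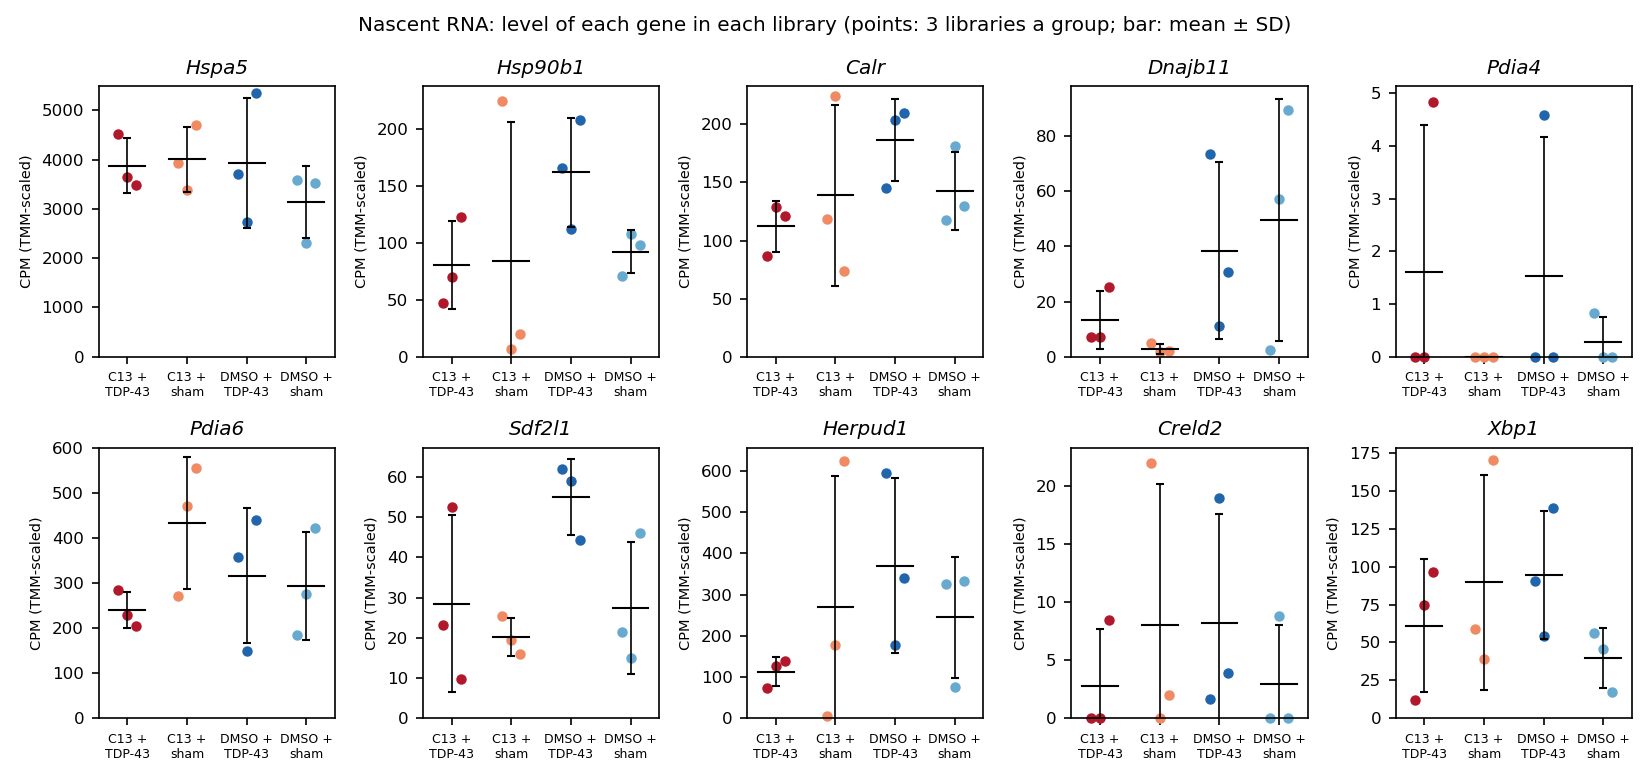
Nascent RNA level of each gene in CPM (y axis, linear from 0) in each of the 12 libraries, by group (x axis), with the mean and SD of the 3 libraries of a group as bars. The 3 libraries of C13 with TDP-43 lie at 73.3 to 140.2 CPM for Herpud1, under the 3 of DMSO with TDP-43.

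The first comparison asked what C13 did in the presence of aggregates. In total RNA, 3 members were higher and 7 lower (49.6% and 50.4% of all genes), with a median log2 fold change of -0.19 against -0.0045 for all genes tested. The test passed 0 of 10 (0% of all genes by edgeR, 0.256% by DESeq2), with 0 higher and 1 lower at an unadjusted p under 0.05 (3.48% and 2.5% of all genes). Pdia6 averaged 236 ± 21.2 CPM in C13 with TDP-43 and 320.1 ± 52.3 CPM in DMSO with TDP-43 (SD, n = 3 each), a log2 difference of -0.44 (SE 0.19, edgeR adjusted p = 0.833). For Calr it was -0.31 (SE 0.18, edgeR adjusted p = 0.862), and for Sdf2l1 0.38 (SE 0.30, edgeR adjusted p = 0.925). Libraries did not overlap for 3 of 10 members, Calr, Pdia6 and Xbp1, all lower with C13, where 6.48% of all genes were so on the lower and 6.97% on the higher side. Hspa5 differed by 0.20, with a 95% interval of -0.25 to 0.65. Sdf2l1 was at 0.22 without C13 with TDP-43 replicate 3 and at 0.59 without C13 with TDP-43 replicate 1. Mitochondrial rRNA also did not overlap, at 1.45% ± 0.139 of the count in C13 with TDP-43 against 2.23% ± 0.453 in DMSO with TDP-43 libraries (SD, n = 3 each), and its part in these values was not tested.

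In nascent RNA of the same groups, the log2 fold change was above 0 for 0 and below 0 for all 8 tested members (50.9% and 49.1% of all genes), with a median of -0.84 against 0.02 for all genes. edgeR and DESeq2 both passed 0 of 8 (0% of all genes by edgeR, 0.304% by DESeq2), with 0 at an unadjusted p under 0.05 (2.44% of all genes higher, 2.15% lower). Scaled by the total library sizes in place of TMM, it was below 0 for 7 of 8. Herpud1 averaged 113 ± 35.3 CPM in C13 with TDP-43 and 370.5 ± 211 CPM in DMSO with TDP-43 (SD, n = 3 each), a log2 difference of -1.71 (SE 0.97, edgeR adjusted p = 0.998). Dnajb11 was at -1.52 (SE 1.32, edgeR adjusted p = 0.998) and Calr at -0.73 (SE 0.65, edgeR adjusted p = 0.998). Herpud1 and Calr were the 2 of 8 members whose libraries did not overlap, both lower, where 4.34% of all genes were so on the lower and 6.02% on the higher side. Hspa5 was nearly level, at -0.02 (SE 0.35). The value of Dnajb11 was -0.64 without DMSO with TDP-43 replicate 1 and -2.38 without C13 with TDP-43 replicate 3.

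The second comparison asked what C13 did without aggregates. In total RNA 4 members were higher and 6 lower (49.2% and 50.8% of all genes), with a median of -0.20 against -0.0075 for all genes. No member passed, that is 0 of 10 (0% of all genes by edgeR, 0.349% by DESeq2). Dnajb11 averaged 36.7 ± 5.15 CPM in C13 with sham and 67.9 ± 19.2 CPM in DMSO with sham (SD, n = 3 each), a log2 difference of -0.89 (SE 0.24, edgeR adjusted p = 0.632). Sdf2l1 averaged 18.9 ± 5.12 CPM in C13 with sham and 33.2 ± 4.75 CPM in DMSO with sham, a change of -0.81 (SE 0.30, edgeR adjusted p = 0.801). Next was Pdia6 at -0.25 (SE 0.19, edgeR adjusted p = 0.930), which was -0.13 without DMSO with sham replicate 3. Dnajb11 and Sdf2l1 were the 2 of 10 members lower at an unadjusted p under 0.05 (4.05% of all genes), and 0 were higher at it (2.05%). Pdia4 was the other of the 3 members whose libraries did not overlap and were lower, where 5.72% of all genes were so on the lower and 4.41% on the higher side. It rests on 0 to 8 reads in C13 with sham and 8 to 25 in DMSO with sham. Mitochondrial rRNA was higher without overlap in C13 with sham, at 2.62% ± 0.972 of the count against 1.32% ± 0.160 in DMSO with sham (SD, n = 3 each). Its part in these values was not tested.

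In nascent RNA, C13 with sham and DMSO with sham divided the members 4 higher to 4 lower (48.3% and 51.6% of all genes). Past the threshold were 0 of 8 (0% of all genes by edgeR, 0.459% by DESeq2), with 0 higher and 1 lower at an unadjusted p under 0.05 (2.47% and 4.42% of all genes). Scaled by the total library sizes, 0 were higher and 8 lower, where the median of all genes also moved to -1.02. Dnajb11 was the member furthest out, with a fitted log2 difference of -4.01 (SE 1.51, edgeR adjusted p = 0.672), on 1 to 3 reads per library in C13 with sham. Xbp1 was at 1.16 (SE 0.97, edgeR adjusted p = 0.842) and Hspa5 at 0.35 (SE 0.35, edgeR adjusted p = 0.883), and when scaled by the total library sizes both were below 0. Each leaned on 1 library, since Xbp1 was at 0.22 without C13 with sham replicate 3 and Hspa5 at 0.094 without DMSO with sham replicate 2. No member's libraries were free of overlap (5.13% of all genes were on the higher and 9.14% on the lower side).

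The third comparison asked what TDP-43 aggregates did under C13. In total RNA 7 members were higher and 3 lower (49.2% and 50.7% of all genes), and 0 of 10 passed (0% of all genes by edgeR, 0.876% by DESeq2). Dnajb11 averaged 66.1 ± 11.4 CPM in C13 with TDP-43 and 36.7 ± 5.15 CPM in C13 with sham (SD, n = 3 each), a log2 difference of 0.85 (SE 0.24, edgeR adjusted p = 0.409). Over the alternatives for the 3 members named in each comparison and kind of RNA, the smallest adjusted p was 0.0758, for this Dnajb11 value by DESeq2. Sdf2l1 was at 0.69 (SE 0.30, edgeR adjusted p = 0.558) and Hsp90b1 at 0.45 (SE 0.29, edgeR adjusted p = 0.687). Hsp90b1 was at 0.17 without C13 with sham replicate 2. Dnajb11 was the 1 member whose libraries did not overlap and were higher, where 6.69% of all genes were so on the higher and 6.07% on the lower side. At an unadjusted p under 0.05, 2 of 10 were higher and 0 lower (5.12% and 3.71% of all genes). The comparison shares the C13 with sham libraries with the one before it. The share of mitochondrial rRNA counts was lower without overlap, at 1.45% ± 0.139 in C13 with TDP-43 and 2.62% ± 0.972 in C13 with sham (SD, n = 3 each). Its part was not tested here either.

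In nascent RNA under C13, 2 members were higher and 6 lower with aggregates (51.3% and 48.7% of all genes). The test passed 0 of 8 (0% of all genes by edgeR, 1.27% by DESeq2), with 0 at an unadjusted p under 0.05 (5.19% of all genes higher, 3.26% lower). Scaled by the total library sizes, 4 were higher and 4 lower, where the median of all genes was 0.35. Dnajb11 was at 2.12 (SE 1.43, edgeR adjusted p = 0.735), without overlap between its libraries, as were 7.87% of all genes on the higher and 5.23% on the lower side. Pdia6 was at -0.85 (SE 0.56, edgeR adjusted p = 0.731). Herpud1 was at -1.24 (SE 0.96, edgeR adjusted p = 0.764), a direction that turned to 0.39 without C13 with sham replicate 3. Without that same library Pdia6 was at -0.56, and Dnajb11 was at 1.31 without C13 with TDP-43 replicate 3.

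The fourth comparison asked what aggregates did in solvent. In total RNA 6 members were higher and 4 lower (48.5% and 51.5% of all genes). edgeR and DESeq2 both passed 0 of 10 (0% of all genes by edgeR, 0.0682% by DESeq2), with 0 at an unadjusted p under 0.05 (1.68% of all genes higher, 2.68% lower). Sdf2l1 averaged 23.5 ± 2.43 CPM in DMSO with TDP-43 and 33.2 ± 4.75 CPM in DMSO with sham (SD, n = 3 each), a log2 difference of -0.50 (SE 0.30, edgeR adjusted p = 0.999). Pdia6 was at 0.25 (SE 0.19, edgeR adjusted p = 0.999) and Creld2 at 0.63 (SE 0.49, edgeR adjusted p = 0.999). Creld2 was at 0.26 without DMSO with TDP-43 replicate 3, and Pdia6 at 0.39 without DMSO with TDP-43 replicate 2. Calr and Xbp1 were the 2 members whose libraries were higher without overlap (5.49% of all genes), and Sdf2l1 the 1 that was lower without overlap (6.41%). Mitochondrial rRNA was higher without overlap too, at 2.23% ± 0.453 of the count in DMSO with TDP-43 and 1.32% ± 0.160 in DMSO with sham (SD, n = 3 each), and its part was not tested. Hspa5 differed by -0.02, with a 95% interval of -0.47 to 0.43.

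In nascent RNA in solvent, 7 of 8 members were higher with aggregates and 1 lower (48.2% and 51.8% of all genes), with a median of 0.49 against -0.04 for all genes. No member passed, that is 0 of 8 (0% of all genes by edgeR, 0.1% by DESeq2), with 0 at an unadjusted p under 0.05 (1.23% of all genes higher, 1.96% lower). Scaled by the total library sizes, 3 were higher and 5 lower, with a median of -0.33, where that of all genes was -0.84. Xbp1 was at 1.24 (SE 0.97), Sdf2l1 at 1.01 (SE 1.06) and Hspa5 at 0.33 (SE 0.35), each with an edgeR adjusted p of 1.00, and Hspa5 was at -0.49 when scaled by the total library sizes. Hspa5 was at 0.033 without DMSO with TDP-43 replicate 3 and at 0.52 without DMSO with TDP-43 replicate 2, and Sdf2l1 at 1.58 without DMSO with sham replicate 3. Hsp90b1 was the 1 member without overlap (3.74% of all genes on the higher and 6.56% on the lower side), at 0.81 (SE 0.97).

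**Figure D4:**
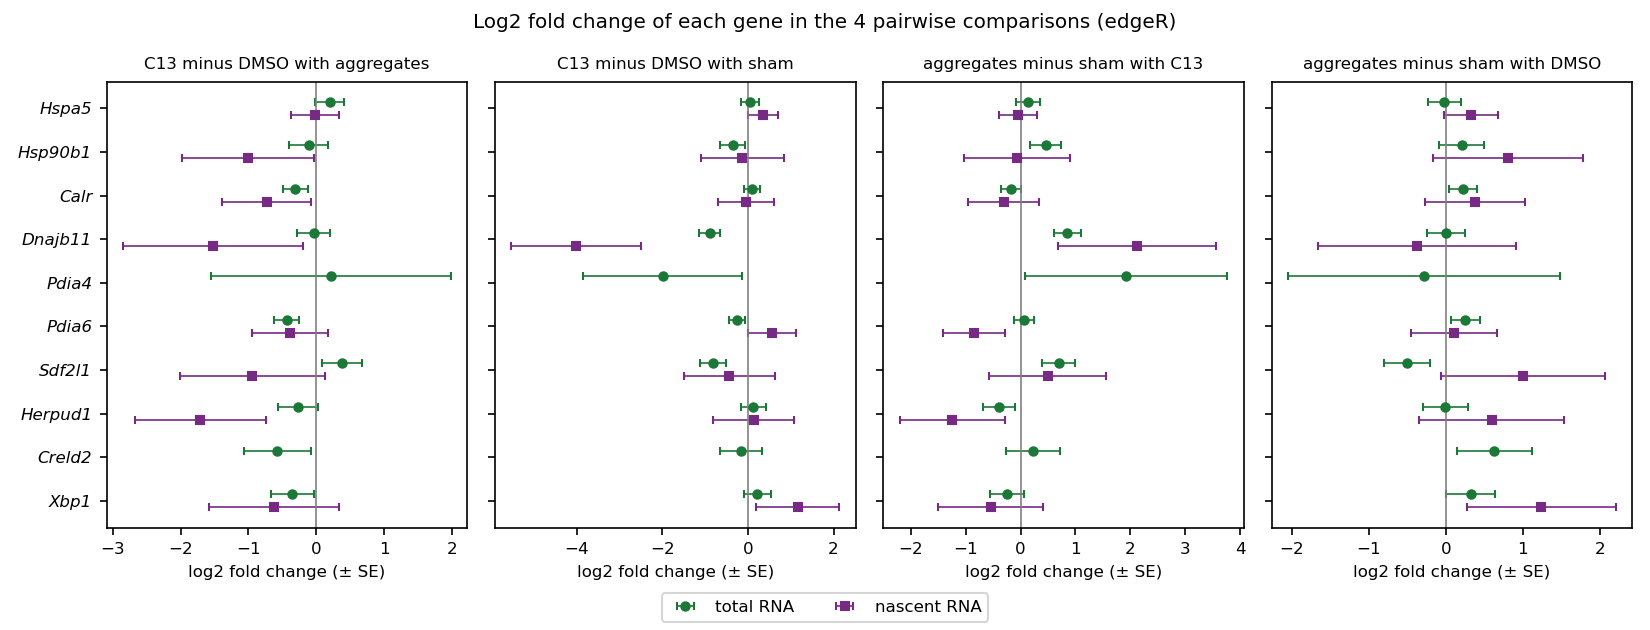
Log2 fold change (x axis, with its SE as bars) of each gene (y axis) in total RNA (green circles) and nascent RNA (purple squares) in the 4 pairwise comparisons. Pdia4 and Creld2 have no nascent value, and SEs are widest for nascent Dnajb11 and for Pdia4.

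Averaging over the other treatment used all 12 libraries, and these comparisons share their libraries with those above. For C13 minus DMSO in total RNA, 1 member was above 0 and 9 were below it (48.5% and 51.5% of all genes), with a median of -0.23. Past the threshold were 0 of 10 (0% of all genes by edgeR, 0.186% by DESeq2), with 0 higher and 2 lower at an unadjusted p under 0.05 (1.75% and 2.33% of all genes). Those were Dnajb11 at -0.46 (SE 0.17, edgeR adjusted p = 0.999) and Pdia6 at -0.34 (SE 0.13, edgeR adjusted p = 0.999), and Hsp90b1 followed at -0.23 (SE 0.20, edgeR adjusted p = 0.999). For aggregates minus sham, 9 members were above 0 and 1 below (48.8% and 51.2% of all genes), with a median of 0.13. The test passed 0 of 10 (0% of all genes by edgeR, 0.281% by DESeq2), with 1 higher and 0 lower at an unadjusted p under 0.05 (2.39% and 2.34% of all genes). That was Dnajb11 at 0.43 (SE 0.17, edgeR adjusted p = 0.948). Hsp90b1 at 0.33 (SE 0.20, edgeR adjusted p = 0.948) and Creld2 at 0.43 (SE 0.35, edgeR adjusted p = 0.948) came next. Hsp90b1 was at -0.081 for C13 and 0.19 for aggregates without C13 with sham replicate 2, and Creld2 at 0.25 for aggregates without DMSO with TDP-43 replicate 3.

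In nascent RNA, 3 members were above 0 and 5 below for C13 minus DMSO (49.1% and 50.9% of all genes), and 0 of 8 passed (0% of all genes by edgeR, 0.143% by DESeq2). Nascent Dnajb11, at -2.77 (SE 1.00, edgeR adjusted p = 0.801), was the 1 member lower at an unadjusted p under 0.05 (3.56% of all genes), and 0 were higher at it (2.4%). Herpud1 was at -0.79 (SE 0.67, edgeR adjusted p = 0.938) and Sdf2l1 at -0.69 (SE 0.75, edgeR adjusted p = 0.973). For aggregates minus sham 6 were above 0 and 2 below (49.1% and 50.9% of all genes), and 0 of 8 passed (0.0141% of all genes by edgeR, 0.225% by DESeq2), nor did any reach an unadjusted p under 0.05 (3.21% of all genes higher, 2.39% lower). The values were 0.75 for Sdf2l1 (SE 0.75, edgeR adjusted p = 0.967), -0.37 for Pdia6 (SE 0.40, edgeR adjusted p = 0.974) and 0.87 for Dnajb11 (SE 0.95, edgeR adjusted p = 0.976). Scaled by the total library sizes, the counts became 0 above and 8 below for C13, and 3 above and 5 below for aggregates. For C13 minus DMSO, Herpud1 was at -1.60 without C13 with sham replicate 3 and -0.50 without C13 with sham replicate 1, and Sdf2l1 at -1.13 without C13 with TDP-43 replicate 2 and -0.42 without DMSO with sham replicate 3. In the averaged effect of aggregates, Sdf2l1 was at 0.35 without C13 with TDP-43 replicate 2, Pdia6 at -0.18 without DMSO with sham replicate 3 and Dnajb11 at 0.43 without DMSO with TDP-43 replicate 1.

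The interaction asks whether the effect of aggregates differed between C13 and DMSO, and 0 members passed in total or nascent RNA (0% of all genes by edgeR in each, 0.92% and 0.698% by DESeq2). In total RNA 5 members were above 0 and 5 below (50.7% and 49.3% of all genes), with 2 above and 0 below at an unadjusted p under 0.05 (4.94% and 3.02% of all genes). It was 1.20 for Sdf2l1 (SE 0.42, edgeR adjusted p = 0.478), which was higher with aggregates under C13 and lower with them in DMSO. It was 0.85 for Dnajb11 (SE 0.34, edgeR adjusted p = 0.528), where the DMSO groups were level at 68.0 ± 4.28 CPM with TDP-43 and 67.9 ± 19.2 CPM with sham (SD, n = 3 each). Calr was at -0.40 (SE 0.26, edgeR adjusted p = 0.744). In nascent RNA 1 member was above 0 and 7 below (52.2% and 47.8% of all genes), with 0 at an unadjusted p under 0.05 (4.63% of all genes above, 2.95% below). Herpud1 was at -1.84 (SE 1.34, edgeR adjusted p = 0.801), Xbp1 at -1.79 (SE 1.36, edgeR adjusted p = 0.806) and Dnajb11 at 2.49 (SE 1.91, edgeR adjusted p = 0.808). Scaled by the total library sizes, 5 were above 0 and 3 below. Without C13 with sham replicate 3, Herpud1 was at -0.15 and Xbp1 at -0.80.

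The nascent share is the percentage of a gene's reads that are nascent. Pooled over libraries it was 6.42% for Xbp1, 6.33% for Herpud1 and 5.42% for Hspa5, against 3.82% for Sdf2l1, 3.58% for Pdia6, 2.88% for Calr, 2.57% for Hsp90b1 and 1.67% for Dnajb11. The median of the 7078 genes tested was 3.05%, with quartiles of 2.21% and 4.48%. Xbp1 and Herpud1, the regulator and the degradation factor, stood above 88.7% and 88.3% of genes, and Dnajb11 above 9.59%. The pooled value of Dnajb11 leaned on DMSO with sham replicate 2, which gave 169 of its 387 nascent reads, and was 1.03% without it, while its median over libraries was 0.53%. Relative to the share of the same library, Hspa5 was above in 12 of 12 libraries, at 1.34 to 2.04 times, as were 4.03% of genes. Its share ran from 3.10% to 9.52% by library, and that of Dnajb11 from 0.056% to 9.03%. Xbp1 and Herpud1 were above in 10 of 12 (11.2% of genes in 10 or more), Sdf2l1 in 8 and Pdia6 in 7. Calr, Hsp90b1 and Dnajb11 were above in 3 of 12, as were 37.9% of genes in 3 or fewer. Hspa5 kept the narrowest range of the 8, while Herpud1 ran from 0.081 to 6.57 times its library. Hspa5 had 1916 to 6812 nascent reads per library and Herpud1 4 to 396, and the part of depth in these ranges was not tested. No correction was made for base composition of the 3′ ends, which sets how many sites a read offers for labelling.

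**Figure D5:**
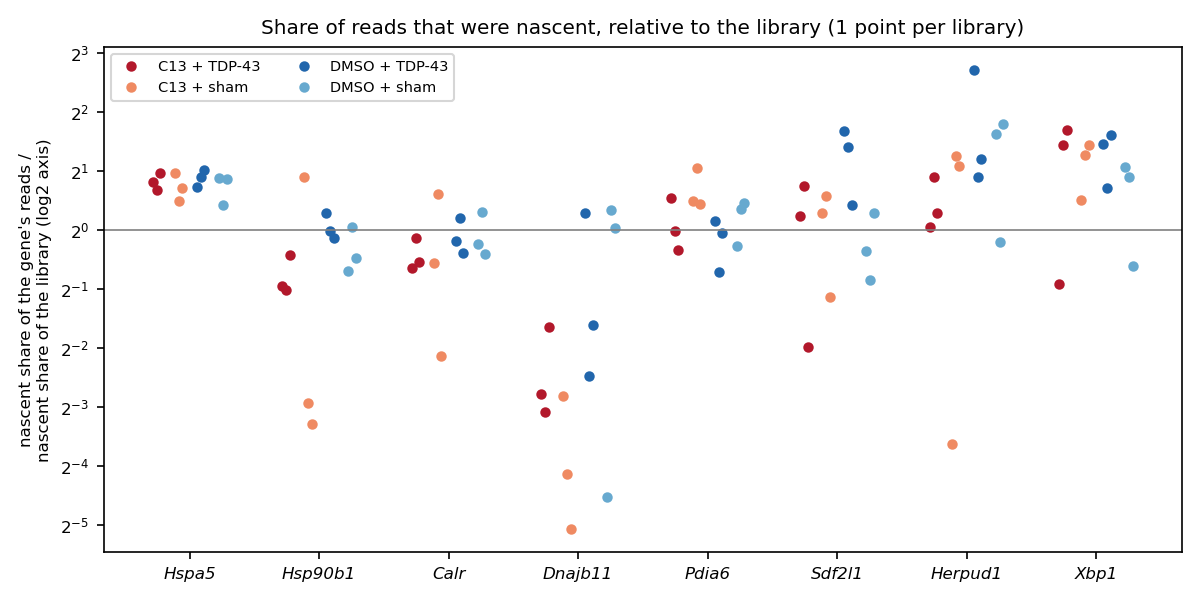
Nascent share of each of the 8 tested genes divided by that of the library (y axis, log2 scale), with 1 point per library coloured by group. All 12 points of Hspa5 lie above the line at 1, while those of Dnajb11 mostly lie far below it.

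Whether nascent reads moved apart from a gene's other reads was tested in 1 fit of both kinds. For C13 minus DMSO 0 of 8 members passed (0% of all genes did) and 0 reached an unadjusted p under 0.05 (1.16% of all genes higher, 2.88% lower), with Dnajb11 at -2.0 (SE 1.02, edgeR adjusted p = 1.00) and Hsp90b1 at -1.01 (SE 0.65, edgeR adjusted p = 1.00). For aggregates minus sham 0 of 8 passed (0.0141% of all genes did) and 0 reached an unadjusted p under 0.05 (1.96% of all genes higher, 2.03% lower), with Pdia6 at -0.54 (SE 0.37, edgeR adjusted p = 1). For nascent Pdia4 and Creld2, a two-sided exact permutation test over 400 arrangements gave p = 0.5 and p = 1 for aggregates against sham, and p = 1 and p = 0.985 for C13 against DMSO.

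Across the 12 libraries Hspa5 stood apart from the other 9 members by Pearson's r, and less cleanly by Spearman's rho. Among the 45 pairs of members, Pearson's r of log2 CPM in total RNA had a median of 0.39 and ran from -0.74 to 0.79. By r all 36 pairs among the other 9 members were positive, from 0.076 to 0.79, and all 9 pairs with Hspa5 were negative, from -0.74 to -0.085. The -0.74 was with Pdia4, a gene near the floor, and the next lowest was -0.62, with Herpud1. By rho, Calr with Sdf2l1 (-0.070), Dnajb11 with Xbp1 (-0.021) and Sdf2l1 with Xbp1 (-0.196) were negative, and Hspa5 with Creld2 was positive (0.035). Dnajb11 and Sdf2l1, whose products form a complex, had r = 0.79 and Spearman's rho = 0.66, and r was 0.61 without the 2 libraries farthest out and 0.79 within groups. Hsp90b1 followed the mean of the other 9 members most closely, with r = 0.92. Its lowest library, at 54.1 CPM, was C13 with sham replicate 2, and this r was not recomputed without that library. Hspa5 ran against the mean of the other 9, with r = -0.53 and rho = -0.53. For Hspa5 r was -0.64 within groups, although it was -0.23 without C13 with sham replicate 2 and C13 with TDP-43 replicate 1. The lowest mean standardised level of the members was in C13 with sham replicate 2 (-1.56 SD) and the highest in DMSO with TDP-43 replicate 3 (0.89 SD). The genes whose total RNA was most like that mean were Gspt1 (r = 0.97), Acsl4 (0.94), Lsm5 (0.94), Psma5 (0.93) and Hmga1 (0.93), of 5640 genes over 20 CPM. Their r was not recomputed without C13 with sham replicate 2 either. All these values share libraries and their scaling, and they are descriptions.

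The rest of the pathway was followed through 5 further lists, and edgeR called 0 of their genes in any comparison of total or nascent RNA. DESeq2 also called 0 in total RNA in both averaged comparisons (0.281% of all genes for aggregates, 0.186% for C13), but called list genes in other comparisons. For aggregates minus sham, genes above and below 0 were 5 and 6 of 11 tested sensors and direct regulators, 5 and 7 of 12 in the PERK arm, and 9 and 16 of 25 other ER chaperones and folding enzymes. They were 11 and 9 of 20 in ER-associated degradation, and 23 and 10 of 33 in translocation into the ER. For C13 minus DMSO the same lists had 5 and 6, 10 and 2, 14 and 11, 5 and 15, and 14 and 19. Medians over the lists lay between -0.10 and 0.08 for aggregates and between -0.07 and 0.06 for C13, and those of all genes at -0.01 for each.

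DESeq2 called Fkbp2, an ER prolyl isomerase, and Kdelr1, the receptor that returns escaped ER proteins, in total RNA, and these were named after their values were seen. Fkbp2 was called for aggregates under C13 (0.876% of all genes), and Fkbp2 and Kdelr1 in the interaction (0.92%). Kdelr1 had 721, 805 and 602 CPM in C13 with TDP-43, 431, 448 and 394 CPM in C13 with sham, 438, 271 and 484 CPM in DMSO with TDP-43 and 568, 567 and 639 CPM in DMSO with sham. It was higher with aggregates under C13 and lower with them in DMSO, both without overlap (6.69% and 6.41% of all genes). The interaction of Kdelr1 was 1.31 (SE 0.30, edgeR adjusted p = 0.211, DESeq2 adjusted p = 0.00719). Fkbp2 had 143, 258 and 335 CPM in C13 with TDP-43 and 116, 50.7 and 111 CPM in C13 with sham, a log2 difference of 1.41 (SE 0.35, edgeR adjusted p = 0.291, DESeq2 adjusted p = 0.00913). Its interaction was 1.72 (SE 0.49, edgeR adjusted p = 0.378, DESeq2 adjusted p = 0.0472). Among 33 genes of translocation into the ER, 9 were higher and 1 lower without overlap for aggregates under C13 in total RNA (6.69% and 6.07% of all genes). No rule set beforehand picked this count, the largest of the lists there. The others had 0 and 1 (sensors), 0 and 0 (PERK arm), 2 and 0 (other chaperones) and 0 and 3 (degradation). Translocation genes had 2 and 1 for aggregates in DMSO (5.49% and 6.41% of all genes). They had 1 and 2 for C13 with aggregates (6.97% and 6.48%) and 1 and 2 for C13 with sham (4.41% and 5.72%). In nascent RNA DESeq2 called 3 list genes for aggregates under C13, Fkbp2, Derl2 and Kdelr1, all higher (1.27% of all genes). These were 1 each of 19 tested chaperones and folding enzymes, 19 in ER-associated degradation and 33 in translocation. Txndc5, a disulfide isomerase, was called higher for C13 with aggregates (0.304% of all genes) and for C13 averaged (0.143%). Fkbp2 and Derl2 were called lower for C13 with sham (0.459%), and Derl2 above 0 in the interaction (0.698%). edgeR's adjusted p for these ran from 0.445 to 0.990. The calls rest on groups with few nascent reads. In C13 with sham, Derl2 had 0, 2 and 1 reads, Fkbp2 0, 6 and 12, and Kdelr1 56, 34 and 12. In DMSO with TDP-43, Txndc5 had 0, 3 and 0. Total RNA of Derl2 went the other way for aggregates under C13, at 45.7 ± 7.68 CPM in C13 with TDP-43 and 60.7 ± 14.5 CPM in C13 with sham (SD, n = 3 each).

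With aggregates, averaged over C13 and DMSO, every gene named here had an edgeR adjusted p of 0.948. Mbtps2, the site-2 protease that activates ATF6, was at 0.48 (SE 0.21), and Creb3, an ER-bound factor of the same class as ATF6, at -0.54 (SE 0.26). In the PERK arm Ppp1r15b, which guides a phosphatase to eIF2α, was at -0.38 (SE 0.22), and the stress factor Atf3 at 0.34 (SE 0.20). Fkbp2 was at 0.55 (SE 0.24), and Manf, a secreted ER stress protein, at 0.29 (SE 0.17). Srp68, a subunit of the signal recognition particle, was at 0.37 (SE 0.14), and Spcs1, of the signal peptidase, at 0.34 (SE 0.15). Ube2j2 and Ube2j1, ubiquitin-conjugating enzymes of the ER membrane, were at 0.24 (SE 0.18) and -0.25 (SE 0.21). Fkbp2 averaged 245.2 ± 96.6 CPM in C13 with TDP-43, 92.5 ± 36.3 CPM in C13 with sham, 151 ± 25.4 CPM in DMSO with TDP-43 and 187 ± 62.2 CPM in DMSO with sham (SD, n = 3 each). As with Dnajb11, C13 with sham was the lowest of the 4 groups.

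With C13, averaged over aggregates and sham, every gene named had an edgeR adjusted p of 0.999. Sil1, the nucleotide exchange factor of BiP, was at 0.46 (SE 0.20), and Manf at -0.35 (SE 0.17). Manf averaged 84.5 ± 16.6 CPM in C13 with TDP-43, 69.5 ± 17 CPM in C13 with sham, 108.7 ± 6.23 CPM in DMSO with TDP-43 and 88.3 ± 14.02 CPM in DMSO with sham (SD, n = 3 each). In mean total RNA each C13 group was thus below its DMSO group in Manf, as in Pdia6. Ssr1, of the translocon-associated complex, was at -0.29 (SE 0.13), and Sec61a1, the channel itself, at 0.32 (SE 0.18). Nfyc, a subunit of the ERSE-binding NF-Y, was at -0.40 (SE 0.20), and Rtcb, the ligase that joins the Xbp1 exons after IRE1 has cut them, at 0.15 (SE 0.14). Derl2, a channel component of ER-associated degradation, was at -0.29 (SE 0.17), and Ube2j2 at -0.23 (SE 0.18). The PERK arm genes Trib3, a pseudokinase, and Asns, asparagine synthetase, were at 0.32 (SE 0.32) and 0.19 (SE 0.21).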

How the data were processed

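As deposited, values were raw counts by Ensembl gene, 1 nascent and 1 total count for each of 12 libraries. RNA had been treated with iodoacetamide and sequenced from its 3′ ends, per the labels' protocols. Reads were placed on GRCm38, per the submitters' processing notes. Not given in the sources used here are the aligner, the counter, its use of strand and how a read was called nascent. Symbols came from GENCODE M21 (30922 of 30994 identifiers matched) and promoters from RefSeq GRCm38.p6.

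Genes kept by filterByExpr were compared with edgeR 4.0.16 (quasi-likelihood test) in R 4.3.3, in 1 fit of all 12 libraries with a mean per group, TMM scaling within each table and Benjamini-Hochberg adjustment over all genes tested. SEs are the size of the log2 fold change over the square root of F. Scaling within the nascent table removes any overall change in labelled RNA. The depth of a library limits low genes most: nascent counts of Pdia4, Creld2 and Dnajb11 were often under 10. Alternatives were DESeq2 1.42.0, its size factors, no filter, a replicate block, each library left out, only the groups compared, total library sizes, and 2 libraries left out; counts divided by their common factor were added after seeing the data. In 1917 of 9932 genes with a mean over 50 total reads, Hspa5, Pdia6 and Herpud1 among them, the 24 counts were all multiples of 2 or of a larger number, for a reason not stated. Replicates were distinct libraries, with a chi-square per degree of freedom of 27.7 or more.

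The members and lists were chosen with earlier results of these data known. Named were all 10 members with their levels, the 3 with the smallest p in each comparison and table, the 2 genes of each further list with the smallest p per averaged comparison in total RNA, and the 5 genes most like the members' mean. Unadjusted p-values are given as counts under 0.05 only. The edgeR test was also run on simulated counts, for aggregates minus sham with DMSO only, with results not given here. The simulation did not cover DESeq2, the interaction or the fit of nascent against other reads.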

Additional observations from a re-analysis of the deposited data

How the results depend on the processing

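The count of members called was 0 in every comparison and each of its alternatives. Among alternative log2 fold changes of named members, the smallest adjusted p was 0.0758, by DESeq2. Of 799 alternative log2 fold changes of named members, 794 kept their direction. In the pairwise comparisons, leaving out a library of neither group, like a change of test, kept the compared counts as they were. The 794 thus include values that could hardly reverse. Nascent Herpud1, at -1.24 for aggregates minus sham with C13, ran from -1.82 to 0.39 when each library was left out in turn, the highest without C13 with sham replicate 3, and was 0.39 without that library and DMSO with TDP-43 replicate 3 together. With the library sizes of the total table, nascent Hspa5 was at -0.49 for aggregates minus sham with DMSO and at -0.56 for C13 minus DMSO with sham, and nascent Xbp1 at -0.31 for C13 minus DMSO with sham. That scaling shifted the median of all nascent genes, relative to TMM, by between -0.98 and 0.31 in the pairwise and averaged comparisons and by 1.10 in the interaction, so nascent directions are relative to it. Leaving out 1 library moved 23 of the 42 named values, 15 nascent and 8 total, by over 1.5 times, and these stand beside the values. The members' median for aggregates minus sham with C13, -0.19 in nascent RNA, was 0.26 without C13 with sham replicate 3.

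The replicate numbers did not pair the libraries: of 18 correlations between same-numbered libraries, 0 in nascent and 2 in total RNA were over 0.1. With the replicate block all 42 values kept their direction, the largest shift was 0.353, the smallest adjusted p was 0.278 and 0 members were called.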

Other observations

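An exact ERSE also stood in the promoter window of genes outside the 10, and these were looked at after the members' values had been seen, as a description. Of 32 such genes, 28 were matched in the tables and 9 were tested in total RNA, among them Canx (calnexin), Dnajc3 (an inhibitor of PERK), Ero1lb (an oxidase that serves the disulfide isomerases) and Syvn1 (the ligase HRD1). For C13 minus DMSO with aggregates, 9 of 9 had a log2 fold change below 0 (50.4% of all genes), with a median of -0.49. Dnajc3 was at -0.58 (SE 0.36), Ero1lb at -0.40 (SE 0.35), Canx at -0.16 (SE 0.16) and Syvn1 at -0.06 (SE 0.54). The median was the value of Pan2, at -0.49 (SE 0.55). The lowest values had wide SEs: Alg12 at -1.01 (SE 1.08), Gm20560 at -0.94 (SE 2.55) and Tdrd9 at -0.93 (SE 0.88). Hnrnpa3 was at -0.06 (SE 0.19). For C13 minus DMSO with sham 3 were above 0 and 5 below, with 1 at 0. For aggregates minus sham in DMSO 9 of 9 were above 0 (48.5% of all genes), with a median of 0.29, and the comparison shares the DMSO with TDP-43 libraries with the first. With C13, aggregates minus sham had 4 genes above 0 and 5 below, with a median of -0.03. One of the 9, Gm20560, had reads in 3 libraries only, 31 in 1 of C13 with TDP-43 and 14 and 44 in DMSO with TDP-43, and without it the medians were -0.45 for C13 minus DMSO with aggregates (8 of 8 below 0), 0.29 for aggregates minus sham in DMSO (8 of 8 above 0) and -0.05 for aggregates minus sham with C13. In nascent RNA 3 of these genes were tested, Canx, Syvn1 and Hnrnpa3, with 1 above 0 and 2 below for C13 minus DMSO with aggregates, and the same counts for aggregates minus sham in DMSO and with C13. edgeR called 0 of them at an adjusted p under 0.05 in each comparison.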
